A study of Caenorhabditis elegans with 4 samples.

Results

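GEI-11 peaks, also called sites here, numbered 418 on the X chromosome of young adult Caenorhabditis elegans. This was 14.9% (exact Clopper-Pearson 95% interval 13.6 to 16.2) of the 2811 peaks in the combined list. They were taken by their chromosome label alone, so every combined peak placed on the X was included and neither strength nor width entered the choice. The single lists of the ChIP replicates held 19 X peaks among 301 in replicate 1 and 297 among 2140 in replicate 2.

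The sites were mapped by chromatin immunoprecipitation and sequencing (ChIP-seq) in strain OP179, with 2 ChIP samples and 2 input samples from hermaphrodites grown at 20 °C. The animals carry the unc-119(ed3) III mutation and the transgene wgIs179, which holds unc-119(+) and gei-11 fused to TY1, EGFP and 3xFLAG, and ChIP and input samples alike carry all of these. The transgene came from particle bombardment, and the labels list no change at the worm's own gei-11 gene, so untagged protein would go unseen by the anti-GFP antibody. Whole worms were used, which mixes the chromatin of all tissues, and the labels do not say whether replicates 1 and 2 were separate cultures. No input peak list was analysed here, and the read depth behind each list is unknown.

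GEI-11, also called SNPC-4, is the worm counterpart of a DNA-binding subunit of SNAPc, the activator of small nuclear RNA genes. SNAPc binds upstream of genes for small non-coding RNAs, such as the spliceosomal small nuclear RNAs, and recruits the polymerase that transcribes them. In C. elegans it is also known at spliced leader RNA and piRNA genes. Hermaphrodites carry a pair of X chromosomes, which are dosage compensated in body cells and largely silent in much of the germ line, and unlike the autosomes the X lacks a sharp division into gene-rich centre and gene-poor arms. The peaks below are named by position on WormBase WS220 and were not assigned to genes.

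The X sites were 1 very strong site, a handful of moderate ones and many weak ones. Strength is given here as the negative log10 of the q-value that the authors' caller, PeakSeq, attached to each peak, so a peak at the largest q in any list would have a strength close to 2. The median X strength was 2.99 (quartiles 2.38 and 4.36), and 209 of the 418 peaks, 50.0%, lay below 3. Strengths of 10 or more were reached by 19 X peaks, 4.55% (95% interval 2.76 to 7.01), where 11.1% of all combined peaks reached that level. Strengths of 20 or more were reached by 3 X peaks, against 5.37% of the whole list.

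The strongest X site spanned chrX:14476526-14477768, with a combined strength of 177, a replicate 1 strength of 27.4 and a replicate 2 strength of 160. It was 59.2 times the X median and 4.68 times the second X peak on this scale. It headed a row of 4 peaks within 5.35 kb. The second, at 14478103 to 14479015, began 334 bp further right and was also the second strongest on the chromosome, with a combined strength of 37.9, against 2.72 in replicate 1 and 35.7 in replicate 2. The remaining pair, at 14480223 to 14480567 and 14481519 to 14481873, had combined strengths of 10.9 and 4.18, were found in replicate 2 at 8.46 and 2.78, and had no counterpart in replicate 1. Strength therefore fell along the row with distance from its first peak, in the combined list and in replicate 2.

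The third X peak, at 16929354 to 16931802, was also the widest on the chromosome at 2449 bp. Its combined strength was 24.2, while replicate 1 gave 2.28 and replicate 2 gave 10.0. Under it, replicate 2 had 2 separate peaks, 16929350 to 16930043 with a strength of 8.27 and 16930275 to 16931802 with 10.0, parted by 231 bp. Replicate 1 had a single narrow peak of 242 bp at its left end. It was the only combined X peak that overlapped more than 1 replicate 2 peak.

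Below these 3 sites the values closed up. In the left part of the chromosome the strongest were 2328762 to 2329136, with a combined strength of 19.7, and 1626577 to 1627413, with 19.0. Their replicate 1 strengths were 3.66 and 2.86, and their replicate 2 strengths 14.9 and 15.4. In the middle part, 11093891 to 11094430 reached 16.3 combined, with 3.18 for replicate 1 and 12.6 for replicate 2. Both parts thus had strong sites that each replicate marked. The peak at 12362771 to 12363579 reached 16.8 in the combined list and 16.4 in replicate 2 but was absent from replicate 1, the strongest X peak of which this was true. Of the 15 strongest X peaks, 11 lay in the right part, 2 in the left and 2 in the middle, all 15 were in replicate 2 and 11 were in replicate 1. They ended at a strength of 10.9, with the next X peak at 10.8.

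Set beside the other chromosomes, the X had the smallest share of strong peaks in the combined list and in both single lists. In the combined list 4.55% of X peaks reached 10, against 9.12% on chromosome III, 9.79% on V, 10.99% on II, 11.3% on I and 14.8% on IV. In replicate 2 the shares were 3.37% on the X and 7.72% to 16.0% on the others, and in replicate 1 they were 1 of 19 peaks, or 5.26%, on the X and 17.3% to 68.8% on the others. The replicate 1 share rests on the strongest X peak alone, with an interval of 0.133 to 26.0%, and in replicate 2 the X interval of 1.63 to 6.10% overlapped those of III (5.91 to 13.2) and V (5.06 to 11.2). The intervals of the combined list did not meet those of II (8.04 to 14.6), V (7.15 to 13.0) and IV (12.7 to 17.0), but overlapped those of III (6.32 to 12.6) and I (6.63 to 17.8). Peaks of 1 list share their libraries and are not replicates, so these shares were not tested and the intervals cover the counting of peaks only.

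Weak peaks were about as dense on the X as on the chromosomes most like it. Peaks below a strength of 3 came to 11.9 per Mb on the X, 12.0 on II, 11.7 on III and 9.24 on V. Strong peaks came to 1.08 per Mb on the X, 2.75 on II, 2.33 on III and 2.01 on V. In the combined list chromosome I, with 1.06 strong peaks per Mb and 3.52 weak ones, had as few strong sites per length as the X but far fewer weak ones. In the single lists chromosome I had more strong peaks per Mb than the X. The values were 1.06 on I and 0.567 on the X in replicate 2, and 0.730 and 0.0567 in replicate 1. In all, the X carried 23.7 peaks per Mb, chromosome II 25.0, III 25.5 and V 20.5. In the combined list the 10 strongest peaks made up 19.1% of the summed strength of the X, against 39.7% on II, 39.1% on III and 29.5% on V. The share was 12.5% on IV and 57.6% on I. In replicate 2 it was 23.1% on the X, 44.8% on II, 42.2% on III and 33.8% on V. In replicate 1, with 19 X peaks, the X was above these 3, with 74.0% against 61.7% on II, 64.8% on III and 64.7% on V. In the combined list the strongest X peak alone made up 9.48% of the X sum, and with it left out the next 10 made up 11.4%.

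**Figure D1:**
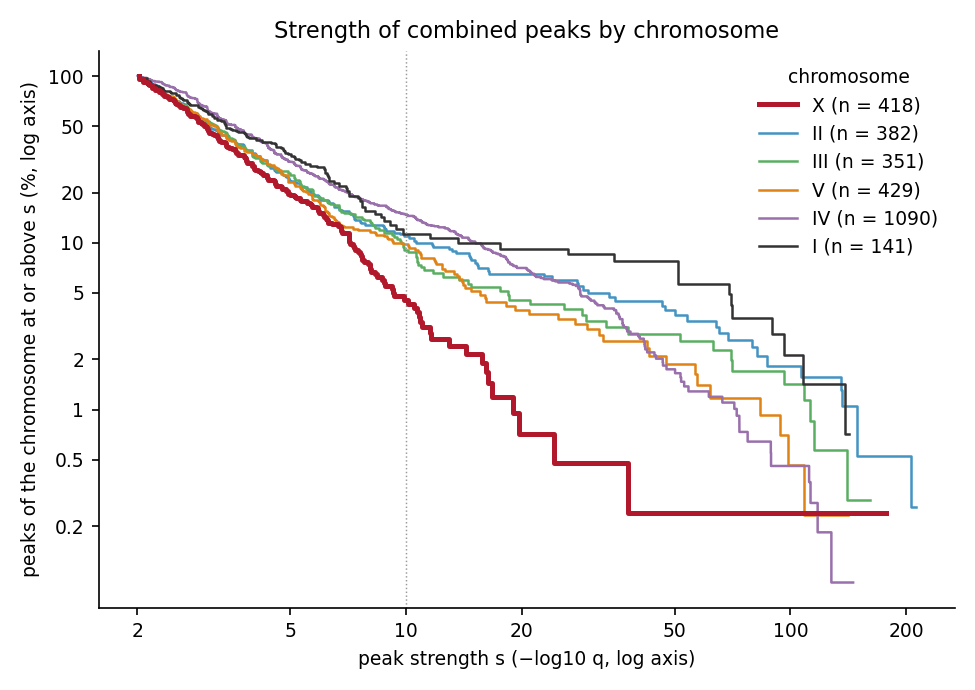
Share of each chromosome's combined peaks (vertical axis, percent, log scale) at or above a given strength (horizontal axis, −log10 q, log scale), with 1 line per chromosome and the dotted line at 10. The X line is the lowest at 10, where it stands at 4.55%, and its long flat end is the single peak at 177.

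Peaks thinned out in the middle of the X and were most frequent toward its right end. With the 17.6 Mb from position 1 to the last peak in any list cut into 3 equal parts, the counts of combined peaks were 144 (left), 91 (middle) and 183 (right), or 24.5, 15.5 and 31.1 per Mb. The middle held 21.8% (17.9 to 26.0). In replicate 2 the middle held 62 of 297 peaks, 20.9% (16.4 to 25.9), next to 102 on the left and 133 on the right. In replicate 1 the parts held 3, 4 and 12 peaks, left to right, and the middle share was 21.1% (6.05 to 45.6). The middle was thus low in the combined list and in replicate 2, while replicate 1 had too few X peaks to place it, with an interval that reaches past an even share.

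In the combined list and in replicate 2, but not in replicate 1, the median strength was highest in the right part. The median strength was 2.88 in the left part, 2.74 in the middle and 3.24 in the right, and the upper quartile was 3.86, 4.03 and 5.59 in the same order. In replicate 2 the medians were 2.78, 2.81 and 3.20, while in replicate 1, with 3, 4 and 12 peaks, they were 2.86, 2.89 and 2.28, lowest in the right part. Of the 19 combined peaks of 10 or more, 13 lay in the right part, 4 in the middle and 2 in the left. Median widths were 295.5 bp in the left part, 328 bp in the middle and 314 bp in the right. The 3 longest gaps between neighbouring combined peaks all lay in the middle part, the longest of 317 kb between 9114113 and 9431060. The end of the chromosome left of the first peak, 324 kb from position 1, was longer still.

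Between 14.5 and 15.5 Mb lay a dense stretch of the X, with the 2 fullest of its 0.5 Mb bins. It held 56 combined peaks, 13.4% (10.3 to 17.0) of the chromosome's, which is 56 per Mb against 21.8 per Mb on the rest of the X, a ratio of 2.57. In replicate 2 it held 45 peaks and the ratio was 2.97. In replicate 1 it held 2 peaks, 1.96 times the density elsewhere, and with so few peaks replicate 1 cannot place the stretch. The stretch was picked with these counts already known, so no test was applied. Its 0.5 Mb bins held 24 and 32 peaks, while the 35 full bins of the X had a median of 9 and ranged from 5 to 32. To the right of the stretch, the bins from 15.5 to 17 Mb held 19, 21 and 19 combined peaks. In replicate 2 they held 10, 14 and 17, where the median full bin of the X held 6. The 6 bins from 14 to 17 Mb, the stretch included, held 130 peaks in the combined list and 98 in replicate 2. At the other end, the bin from 2.5 to 3 Mb held 21 combined peaks and 18 in replicate 2, the fullest of the left part in both.

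**Figure D2:**
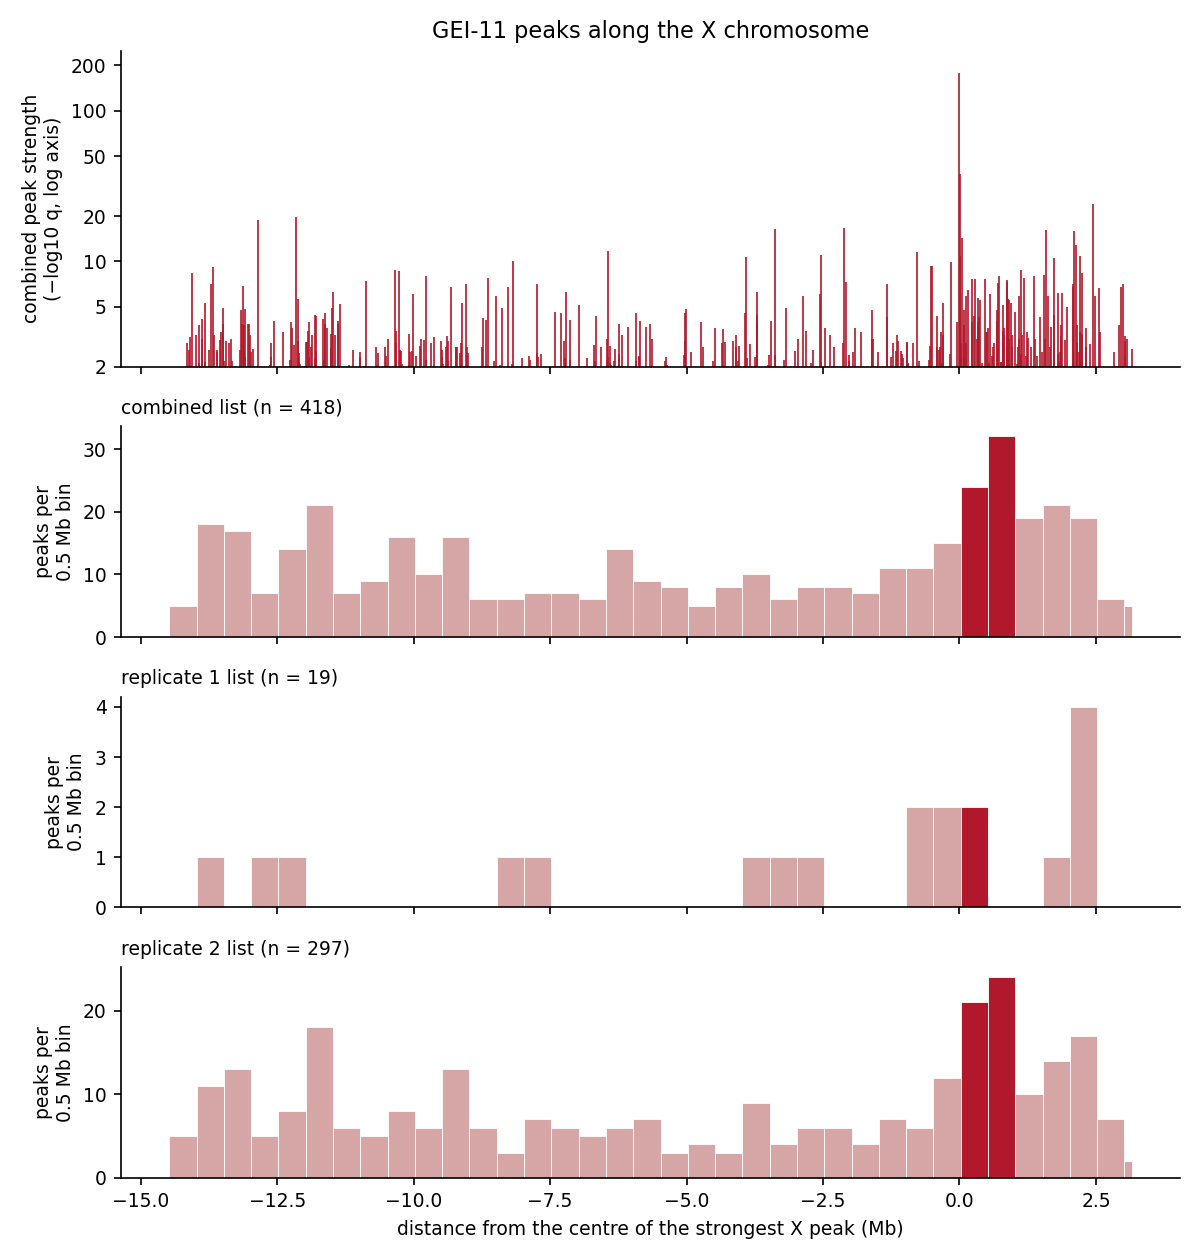
Top, strength of each combined X peak (−log10 q, log scale), and below it the number of X peaks per 0.5 Mb bin in the combined, replicate 1 and replicate 2 lists, all against the distance in Mb from the centre of the strongest X peak. The darker bars are the 2 bins of the dense stretch, which hold 56 combined peaks, 2 peaks of replicate 1 and 45 of replicate 2.

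The dense stretch was made of many modest peaks. Its median strength was 3.61 (quartiles 2.71 and 5.52) against 2.94 (2.38 and 4.15) on the rest of the X, and in replicate 2 the medians were 3.35 and 2.81. In replicate 1 the order was the other way, with 2.16 for the 2 peaks of the stretch and 2.72 for the other 17. A single peak of the 56 reached 10, at 14525532 to 14526329, with a combined strength of 14.3, a replicate 1 strength of 2.05 and a replicate 2 strength of 12.0. The next were 15200646 to 15201084 and 14938180 to 14938469, with combined strengths of 8.05 and 7.70 and replicate 2 strengths of 6.69 and 6.10, and neither was in replicate 1. The strongest X site itself lay outside the stretch, to its left, and the peak at 14525532 was 48.8 kb from it, centre to centre. Peaks of the stretch had a median width of 296.5 bp, against 312 bp elsewhere on the X. Neighbouring peaks of the stretch were a median of 12.8 kb apart, centre to centre, against 27.2 kb elsewhere.

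Most X peaks stood alone or in pairs. Centres of neighbouring X peaks were a median of 24.9 kb apart (quartiles 7.71 and 53.3), against 20.5 kb on chromosome II, 19.4 kb on III and 26.7 kb on V. A neighbour within 1 kb, edge to edge, was found for 33 X peaks, 7.89%, against 20.0% of all combined peaks, a figure that chromosome IV raises with 33.8%. The shares were 12.0% on II, 11.7% on III and 13.3% on V, above that of the X. In replicate 2 they were 6.06% on the X, 11.6% on II, 9.09% on III and 8.95% on V. In replicate 1 the X was highest instead, with 4 of 19 peaks, 21.1%, against 10.3% on II, 7.69% on III and 18.4% on V. The closest X pair, at 4145000 to 4145244 and 4145452 to 4145779, was 207 bp apart, and no chromosome of the combined list had a gap under 205 bp.

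When peaks up to 10 kb apart were joined, 208 X peaks, 49.8%, had no partner and 92 peaks fell into 25 groups of 3 or more. The X was close to II, III and V in this, where 45.8%, 49.6% and 52.9% of peaks had no partner. Groups of 3 or more numbered 27, 28 and 30 there. On the X, these groups were spread unevenly. The right part held 15 of the 25 X groups, the left 7 and the middle 3. The largest group had 7 peaks over 25.6 kb, from 15339927 to 15365488 in the dense stretch, with a highest strength of 7.52. Replicate 2 held 4 of these 7 peaks, where it held 68.2% of the combined X peaks and 72.6% of all combined peaks. A group of 5 between 4142119 and 4151633 had 1 peak in replicate 2. It opened with a wide X peak, 4142119 to 4143226, 1108 bp wide with a combined strength of 8.76 and 6.85 in replicate 2. It also held the closest pair and the strongest X peak missing from both single lists, 4147367 to 4147944, with a strength of 3.46. The most isolated X peak, at 7500980 to 7501260 in the middle part, had a strength of 5.14 in the combined list and 3.88 in replicate 2, and lay about 160 kb from each neighbour.

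Stronger X peaks were wider. The median X width was 311 bp (quartiles 248 and 393), against 291 bp on II, 312 bp on III and 311 bp on V. By strength, the median was 261 bp for X peaks below 3, 334 bp from 3 to 5, 381 bp from 5 to 10 and 543 bp from 10 to 20, and the 3 peaks of 20 or more had a median of 1243 bp. On the other 5 chromosomes the medians of the same classes were 236, 276.5, 344.5, 400 and 547.5 bp, and on II, III and V alone they were 254, 316.5, 376, 422 and 604 bp. All 15 of the strongest X peaks were wider than the X median. Across the 418 X peaks the Spearman rho of width and strength was 0.57, a description only, since the peaks share the same libraries and the width and q-value of a peak come from the same reads. It was 0.68 on II, 0.67 on III and 0.59 on V. On the X it was 0.59 in replicate 2 and 0.31 across the 19 peaks of replicate 1. Narrow peaks were rare on the X, where 10 of 418, 2.39%, were under 200 bp wide. The share was 4.99% on II, III and V together and 22.7% on all 5 other chromosomes together. Of the 543 such peaks on the other chromosomes, 58 were on II, III and V. The lower quartile of width was 107.5 bp on IV and 308 bp on I, against 248 bp on the X. The weakest X peaks, at 15342506 to 15342891, 15365221 to 15365488 and 6744610 to 6744825, were 386, 268 and 216 bp wide with strengths of 2.02, and none was in a replicate list.

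**Figure D3:**
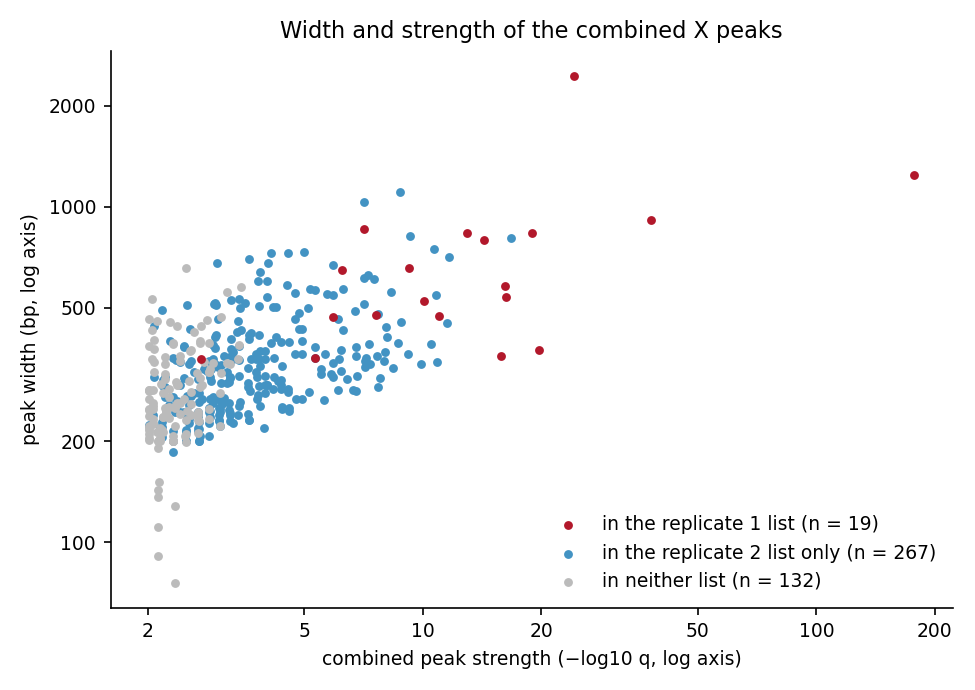
Width (bp, log scale) against strength (−log10 q, log scale) of the 418 combined X peaks, coloured by the single lists that held them. The 19 peaks of the replicate 1 list lie toward the strong and wide side, and the 132 found in neither list are weak, with a median strength of 2.32.

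Of the 418 combined X peaks, 285 overlapped a replicate 2 peak by 1 bp or more, 68.2% (63.5 to 72.6), against 72.6% of all combined peaks. A replicate 1 peak was overlapped by 19, 4.55% (2.76 to 7.01), against 10.5% of all. Both lists held 18 (4.31%, against 10.2% of all), replicate 2 alone 267 (63.9%, against 62.3%), replicate 1 alone 1 (0.239%, against 0.249%) and neither list 132 (31.6%, against 27.2%). Because these same ChIP samples gave the combined list, overlap is built in. X peaks in both lists had a median combined strength of 13.6 and a median width of 614.5 bp, and those in neither had 2.32 and 259 bp. By chromosome, the replicate 1 share was lowest on the X, with 8.86% to 13.5% on the others, and so was the replicate 2 share, with 70.2% to 75.0% on the others. For replicate 1 the X interval overlapped those of I (6.08 to 16.9) and V (6.34 to 12.0). It did not meet those of II (7.14 to 13.4), III (7.78 to 14.6) and IV (11.5 to 15.7). For replicate 2 the X interval overlapped those of all the other chromosomes. These shares were not tested.

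By class of strength, the intervals of the X shares overlapped those of the other chromosomes. Strength was not matched within a class. From 10 to 20 the median was 12.3 on the X and 13.6 elsewhere, and from 5 to 10 it was 6.77 and 6.29. For peaks from 10 to 20, replicate 1 held 9 of 16 X peaks, 56.3% (29.9 to 80.2), and 97 of 145 others, 66.9% (58.6 to 74.5). From 5 to 10 it held 6 of 63 X peaks, 9.52% (3.58 to 19.6), and 25 of 372 others, 6.72% (4.40 to 9.76). Replicate 2 held 86 of 209 X peaks below 3, 41.1% (34.4 to 48.1), and 427 of 962 others, 44.4% (41.2 to 47.6). From 3 to 5 it held 117 of 127 X peaks, 92.1% (86.0 to 96.2), and 665 of 766 others, 86.8% (84.2 to 89.1). Chromosome IV weighs on that last share, and II, III and V together, with 322 of 342 peaks or 94.2% (91.1 to 96.4), lay above the X. In each of these classes the intervals overlapped, but overlap of intervals is not a test of a difference. It does not show that the shares were equal, and the shares were not tested. All 82 X peaks of 5 or more were in replicate 2. So were 370 of 372 others from 5 to 10 and all others of 10 or more.

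**Figure D4:**
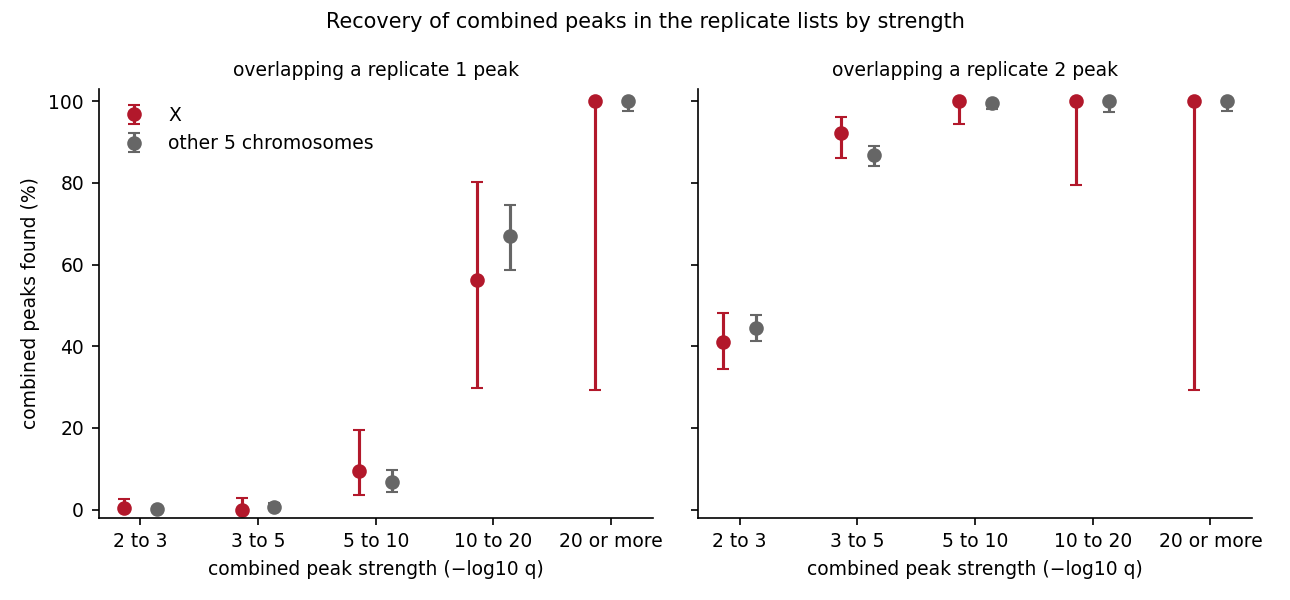
Share of combined peaks (percent) that overlapped a replicate 1 peak, left, or a replicate 2 peak, right, by class of combined strength (−log10 q), for the X and for the other 5 chromosomes. Bars are exact 95% intervals for the counting of peaks, and the wide X bars at 20 or more rest on 3 peaks.

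The X list of replicate 1 was short and, past its first entry, weak. Its strongest peak had a strength of 27.4 and ranked 17 of 301, and the other 18 X peaks lay between 2.05 and 3.91, at ranks 169 to 297. Of the 19, 12 lay below 3, or 63.2%, against 30.1% of the replicate 1 peaks on the other chromosomes. In replicate 2, 18 of the 19 were found again, 94.7% (74.0 to 99.9), against 97.3% of all replicate 1 peaks, and all 19 were in the combined list, against 99.7% of all. The exception was 13945493 to 13945788, with 2.06 in replicate 1 and 2.74 in the combined list. Of the 297 X peaks of replicate 2, 286 were in the combined list, 96.3%, against 95.7% of all replicate 2 peaks. The 11 left out were weak, with strengths from 2.01 to 2.43, and were scattered from 3106132 to 17184617.

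The 18 combined X peaks found in both replicates were all stronger in replicate 2, as were 269 of the 270 such peaks elsewhere. The X medians were 2.66 in replicate 1 and 9.45 in replicate 2. The median ratio of replicate 1 to replicate 2 strength was 0.280 on the X (quartiles 0.231 and 0.402) and 0.304 for the 270 such peaks elsewhere (0.242 and 0.384), 2 ranges that overlap almost wholly. The X ratios ran from 0.0762 to 0.761. The lowest belonged to the second strongest X peak, at 14478103 to 14479015, and lay below the lowest elsewhere, 0.126. In replicate 1 that site was called 287 bp wide, against 913 bp in replicate 2.

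**Figure D5:**
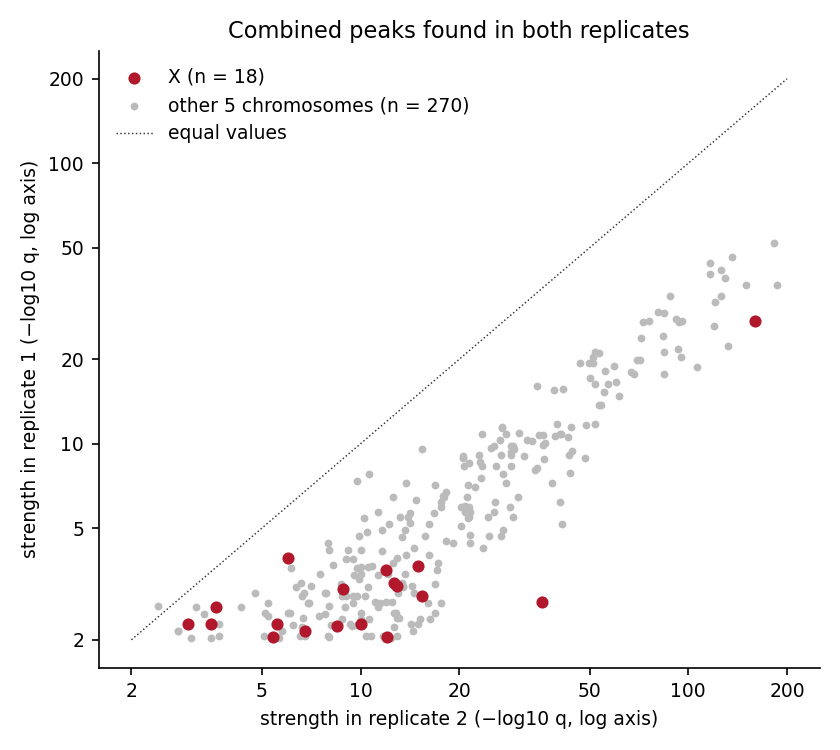
Strength (−log10 q) in replicate 1 against strength in replicate 2, both on log axes, for combined peaks found in both lists, with the 18 X peaks in red, the 270 others in grey and a dotted line at equal values. All X peaks and 269 of the 270 others lie below the line. The X peak farthest below it is the second strongest of the chromosome, with 2.72 in replicate 1 and 35.7 in replicate 2.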

How the data were processed

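The data were 3 ChIP-seq peak lists, a combined one and 1 for each ChIP replicate. Coordinates follow WormBase WS220, per the file headers, and PeakSeq is given as the source of the peaks. The deposited value per peak is a q-value, at most 0.0100 in any list, which is neither a height nor a fold enrichment and depends on read depth. Not given in the sources used here are the caller's version, the aligner, filters, the q threshold and the way the replicates were combined. Strength is −log10 q.

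X peaks were selected by chromosome label. Peaks were placed by their centres, and an overlap of 1 bp counted as found. Shares carry exact Clopper-Pearson 95% intervals, which cover counting error only and treat peaks as independent. No significance test was made, since peaks of 1 list share their libraries and there are 2 ChIP samples. No WS220 genome or annotation was used here, so sites carry no gene names or sequences.

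The X, its parts, the dense stretch and the comparisons were chosen with earlier results of these data known. Named peaks are the 15 strongest on the X, the 3 strongest of each part and of the stretch, the 3 widest and 3 weakest, the most isolated, the closest pair, the replicate 1 X peak that replicate 2 lacked, and the strongest found in replicate 2 alone or in neither list. Other sites are named as members of the row, group or gap described. Functions were tested on simulated data. Alternatives were each single list, q below 0.001, merging within 1 kb, other extents and other overlap rules. Software was pandas 2.3.3, scipy 1.17.1, matplotlib 3.10.9 and numpy 2.4.6 under Python 3.11.15.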

Additional observations from a re-analysis of the deposited data

How the results depend on the processing

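No paired analysis was possible because the input samples that share numbers with the ChIP samples had no peak list used here. Each result was recomputed from each single list, which leaves out the other replicate. Over those lists the X share of peaks was 6.31% to 13.9%, X density 1.08 to 16.8 peaks per Mb, the middle share 20.9% to 21.1%, the ratio of the dense stretch 1.96 to 2.97, the median strength 2.61 to 2.95, the median width 317 to 323 bp, the median spacing 34.2 to 478 kb and the share of strength in the 10 strongest peaks 23.1% to 74.0%. In each range the value farthest from the combined list was that of replicate 1, with 19 X peaks, except for the middle share, where it was that of replicate 2. With q below 0.001, which left 209 X peaks, density was 11.9 per Mb, the middle share 18.2%, the stretch ratio 3.70, the median strength 4.36, the median width 359 bp, the median spacing 45.8 kb, and recovery 8.61% in replicate 1 and 95.2% in replicate 2. Some of these shifts follow from dropping weak peaks. With peaks within 1 kb merged the middle share was 22.3%, and with the extent taken from the first to the last X peak 21.3%. Without chromosome IV in the total, the X share was 24.3%, a rise that follows from the smaller total. The X peaks of replicate 1 were found in replicate 2 at 94.7%. The stretch ratio was 1.91 with the stretch moved left by 0.25 Mb and 2.63 with it moved right, slightly above the 2.57 of 14.5 to 15.5 Mb. The middle was less dense than the pooled outer parts under all settings run, though in replicate 1 it held 4 peaks and the left part 3. With 5 equal parts, and the inner 3 together taken as the middle, the ratio of middle to outer density was 0.550. That middle is wider than the middle of 3 equal parts, for which the ratio was 0.557. Replicate 1 has 19 X peaks and the depth of both lists is unknown, so sites missing from it cannot be called unbound.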
